A study of Mus musculus with 9 samples.

Results

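The miR-199 and miR-214 group consists of 6 mature miRNAs, mmu-miR-199a-5p, mmu-miR-199a-3p, mmu-miR-199b-5p, mmu-miR-199b-3p, mmu-miR-214-5p and mmu-miR-214-3p (written below without the species prefix), which were taken by name from a table of 1966 mature mouse miRNAs. All 6 had counts in every library and passed the expression filter in every comparison. The rule goes by name and uses no measured value. They were measured by small RNA sequencing of quadriceps muscle from 9 mice with 1 library per mouse and 3 mice per group. The labels give their age as 90 days. The text of the study states a slightly younger age, in weeks. WT mice were C57BL/6J with intact Mbnl1 and Mbnl2. Mbnl1KO mice were C57BL/6J with Mbnl1ΔE3/ΔE3 and intact Mbnl2. Mbnl2KO mice carried intact Mbnl1 on the background B6.C-Tg(CMV-cre)1Cgn/J, in which the CMV promoter drives Cre in most tissues, and their labels give a different Mbnl2 allele pair for each mouse (Mbnl2ΔE2/ΔE2, Mbnl2ΔE2/ΔE3 and Mbnl2ΔE2/ΔE4, for replicates 1 to 3), whereas the study's text gives only Mbnl2ΔE2/ΔE2. These 3 mice were analysed as 1 group. The labels give the Cre background for all Mbnl2KO mice and for no others. In comparisons with Mbnl2KO, background and Mbnl genotype therefore cannot be told apart. Small RNA libraries do not measure Mbnl mRNAs, so the deleted genes could not be checked here.

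A miRNA hairpin is cut by Drosha and Dicer into a duplex, from which a 5p and a 3p arm can be loaded into Argonaute. The loaded arm pairs with target mRNAs mainly through its seed, so that arms of 1 hairpin recognize different targets. miR-199a-2 and miR-214 are made from a shared non-coding RNA, Dnm3os, which is driven by TWIST1 in mesenchymal cells, and both miRNAs are known from fibroblasts, vessel wall and fibrosis. The Mbnl genes encode proteins of the muscleblind-like family, which bind RNA and control its splicing and other processing steps. Whole muscle holds fibres together with fibroblasts, vessels and blood cells, so in these libraries fewer cells of a type and less of a miRNA per cell cannot be told apart, and no cell type can be assigned to the 6 arms.

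The mature sequences show which arms can be told apart by sequence and which share a seed. RefSeq (GRCm38.p6) gave 5 of the 6 arms, all but miR-199b-5p, and they are written 5′ to 3′ with the seed, bases 2 to 8, in capitals.
miR-199a-5p: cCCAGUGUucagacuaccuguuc
miR-199a-3p: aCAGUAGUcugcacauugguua
miR-199b-3p: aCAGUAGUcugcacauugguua
miR-214-3p: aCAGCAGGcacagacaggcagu
miR-214-5p: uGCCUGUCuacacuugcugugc
The 3p arms of miR-199a and miR-199b were identical in all 22 bases and shared the seed CAGUAGU. The seed of miR-199a-5p was CCAGUGU, that of miR-214-3p CAGCAGG and that of miR-214-5p GCCUGUC. No other pair of these 5 printed arms shared a seed. The seed of miR-199b-5p was not compared. The Mir199b hairpin also holds the bases CCAGUGU upstream of its 3p arm, so miR-199b-5p may share the seed of miR-199a-5p.

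The arms come from 4 hairpins, of which 2 encode miR-199a. Mir199a-2 lies at chr1:162217814-162217923 on the plus strand and Mir214 at chr1:162223368-162223477 on the same strand, with 5444 bases between them. Both lie in an exon of Dnm3os, inside an intron of Dnm3 (dynamin 3) on the opposite strand. Mir199a-1 lies at chr9:21496495-21496564 on the minus strand, opposite an intron of Dnm2 (dynamin 2). Mir199b lies at chr2:32318460-32318569 on the plus strand, opposite an intron of Dnm1 (dynamin 1). Coordinates are those of GRCm38.p6, and the host genes were read from the GENCODE annotation of GRCm39. The hairpins of the Dnm3os transcript are shown because the ratio between their products is followed below, with the mature arms in capitals.
Mir199a-2: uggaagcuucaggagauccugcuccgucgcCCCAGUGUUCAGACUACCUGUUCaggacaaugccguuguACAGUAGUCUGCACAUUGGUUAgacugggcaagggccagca
Mir214: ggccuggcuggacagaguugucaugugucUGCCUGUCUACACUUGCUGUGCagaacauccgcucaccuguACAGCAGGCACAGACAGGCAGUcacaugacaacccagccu
Reads of miR-199a-5p or miR-199a-3p could come from either miR-199a hairpin and could not be divided between chromosomes 1 and 9. miR-199b-5p and both miR-214 arms each belong to a single locus.

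The libraries held between 4761271 and 6277018 counts, and 61.4% to 73.7% of them were of miR-1a-3p, the dominant muscle fibre miRNA. The 6 arms made up 0.140% to 0.211% of a library and 0.406% to 0.642% of the counts other than miR-1a-3p. Replicate libraries differed by far more than sampling noise (chi-square per degree of freedom of 38.8 to 272), and none was counted as a duplicate. Levels are given as normalized counts, that is counts scaled for library size and composition with TMM over all 9 libraries.

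miR-199a-3p and miR-199b-3p were counted in separate rows of the table although they have the same sequence. In each library the miR-199a-3p row held between 66.5% and 67.7% of the counts of both rows. Over all 9 libraries it held 33800 of 50292 counts, or 67.2% (95% Wilson interval 66.8 to 67.6, counting error only). The miR-199a hairpins are 2 of the 3 loci that encode the sequence, a share of 66.7%, which lies just under that interval. The log2 ratio of the rows had an SD of 0.025 over the 9 libraries, below the 0.041 that counting error alone gives for independent rows of this size. The rows therefore gave no separate measure of the loci, and they are treated below as 2 counts of 1 mature miRNA, miR-199-3p, for which the miR-199a-3p row is used. The only other pair of rows with an identical sequence and at least 100 counts, let-7a-1-3p and let-7c-2-3p, held 53.2% and the remainder, with 1 locus each.

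**Figure D1:**
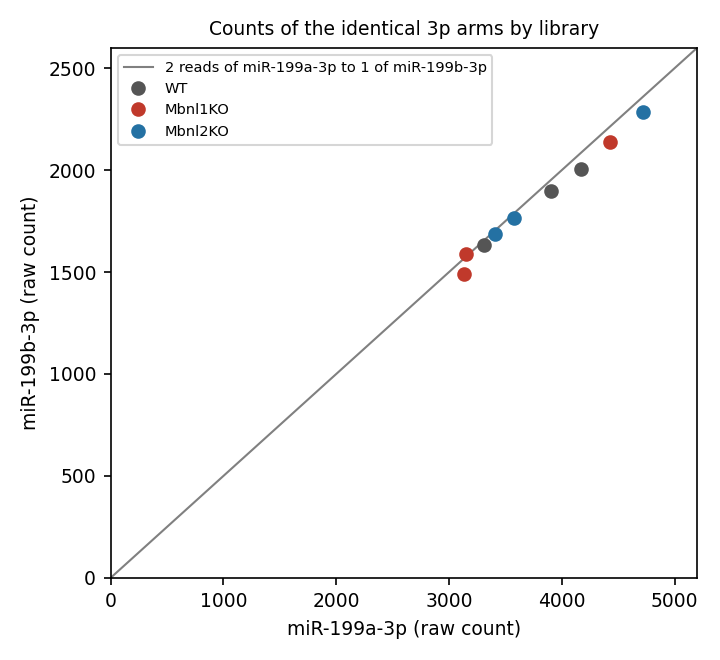
Raw counts of miR-199a-3p (horizontal axis) and miR-199b-3p (vertical axis), 1 point per library coloured by group, with a line at 2 counts to 1. All 9 libraries lie near the line, with 66.5% to 67.7% of the counts in the miR-199a-3p row.

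miR-199-3p was the most abundant of the 6 arms. Its miR-199a-3p row ranked 43rd of 909 detected miRNAs by mean normalized count, followed by miR-199a-5p (46th), the miR-199b-3p row (57th), miR-214-3p (99th), miR-199b-5p (139th) and miR-214-5p (204th). In WT, miR-199a-3p had 4103 ± 89.5 normalized counts (SD, n = 3), miR-199a-5p 3160 ± 405, miR-199b-3p 1998 ± 49.5, miR-214-3p 450.0 ± 28.6, miR-199b-5p 175 ± 17.0 and miR-214-5p 51.0 ± 17.8. The ranges of neighbours in this order did not overlap in WT. In Mbnl1KO the miR-199a-3p row and miR-199a-5p did overlap, with means of 3048 and 3052 normalized counts. They also overlapped in Mbnl2KO, at 3380 to 4610 and 2906 to 4062. With both 3p rows added, Mbnl1KO held 6569, 4734 and 4624 raw counts of miR-199-3p, against 3941, 3208 and 3508 of miR-199a-5p. Each count stands for a read of a whole mature miRNA of nearly equal length, so the levels were not divided by length.

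The first comparison asked which arms changed in muscle without Mbnl1. miR-199-3p was the only mature sequence of the group with a lower level in Mbnl1KO than in WT by edgeR's test, while miR-199a-5p, its partner arm, and both miR-214 arms did not pass it. Its miR-199a-3p row had 4206, 4045 and 4058 normalized counts in WT and 3284, 3244 and 2615 in Mbnl1KO. All Mbnl1KO libraries were below all WT libraries, with replicate 3 the lowest. The log2 fold change was -0.43 (SE 0.144, edgeR adjusted p = 0.0139). For the miR-199b-3p row, the normalized counts were 2044, 1946 and 2004 in WT and 1586, 1634 and 1246 in Mbnl1KO, and the log2 fold change was -0.43 (SE 0.15, edgeR adjusted p = 0.0206). These calls are not independent evidence, since both rows count the same sequence. Among all 317 miRNAs tested, 14.2% were called lower in Mbnl1KO and 33.1% in either direction, and for 22.7% all Mbnl1KO libraries were below all WT libraries. The 2 called rows of 6 are close to the background of 33.1%.

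This difference depended on how the libraries were scaled. As a percentage of all counts, the miR-199a-3p row stood at 0.0635, 0.0680 and 0.0694 in WT and at 0.0751, 0.0597 and 0.0499 in Mbnl1KO, so that the groups overlapped and Mbnl1KO replicate 1 was the highest of the 6. With library totals in place of TMM its log2 fold change was -0.12 (edgeR adjusted p = 0.646), within a range of adjusted p of 0.00285 to 0.646 over its 14 alternatives. That scaling moved the median over all tested miRNAs from -0.0090 to 0.28, and relative to this median the miRNA remained lower. The share of miR-1a-3p was 61.4% to 68.6% in Mbnl1KO and 69.7% to 71.3% in WT, and its part in the difference was not tested. With totals that leave out miR-1a-3p the rows stood at -0.36 and -0.35 and also missed the threshold (edgeR adjusted p = 0.0554 and 0.0682), and with no filter beyond 1 count the miR-199b-3p row missed it (edgeR adjusted p = 0.0531). The call of the miR-199a-3p row was also lost without WT replicate 1 (log2 fold change -0.42, edgeR adjusted p = 0.0603) and without Mbnl1KO replicate 3 (-0.33, edgeR adjusted p = 0.149). The miR-199b-3p row lost its call without the same libraries (-0.42 and -0.31, edgeR adjusted p = 0.0764 and 0.186).

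miR-199b-5p, the arm made only from Mir199b at the Dnm1 locus, had 191, 157 and 178 normalized counts in WT and 120, 155 and 115 in Mbnl1KO. The groups were separate by a narrow margin, between 157 in WT and 155 in Mbnl1KO. Its log2 fold change of -0.44 was as large as that of miR-199-3p but did not pass the threshold (SE 0.202, edgeR adjusted p = 0.0853). Without Mbnl1KO replicate 2 it passed (-0.55, edgeR adjusted p = 0.0460), and with library totals the log2 fold change shrank to -0.14 (edgeR adjusted p = 0.693).

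miR-199a-5p had 3450, 3332 and 2698 normalized counts in WT and 2922, 3306 and 2928 in Mbnl1KO, and the groups overlapped over most of their range. Its log2 fold change was -0.05 (SE 0.145, edgeR adjusted p = 0.802), and it turned to 0.25 with library totals (edgeR adjusted p = 0.317). miR-214-3p, the main arm of miR-214, had 436, 483 and 431 normalized counts in WT and 495, 356 and 411 in Mbnl1KO, where replicate 1 was the highest and replicate 2 the lowest of the 6. The log2 fold change was -0.10 (SE 0.169, edgeR adjusted p = 0.699). miR-214-5p, the minor arm, had 32.3, 67.9 and 52.8 normalized counts in WT and 52.6, 41.2 and 34.2 in Mbnl1KO, from raw counts of 30 to 71. At this depth the WT libraries alone differed by more than the groups did, and the log2 fold change of -0.26 had an SE of 0.303 (edgeR adjusted p = 0.542). The direction of both miR-214 arms turned with library totals, to 0.22 and 0.050.

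**Figure D2:**
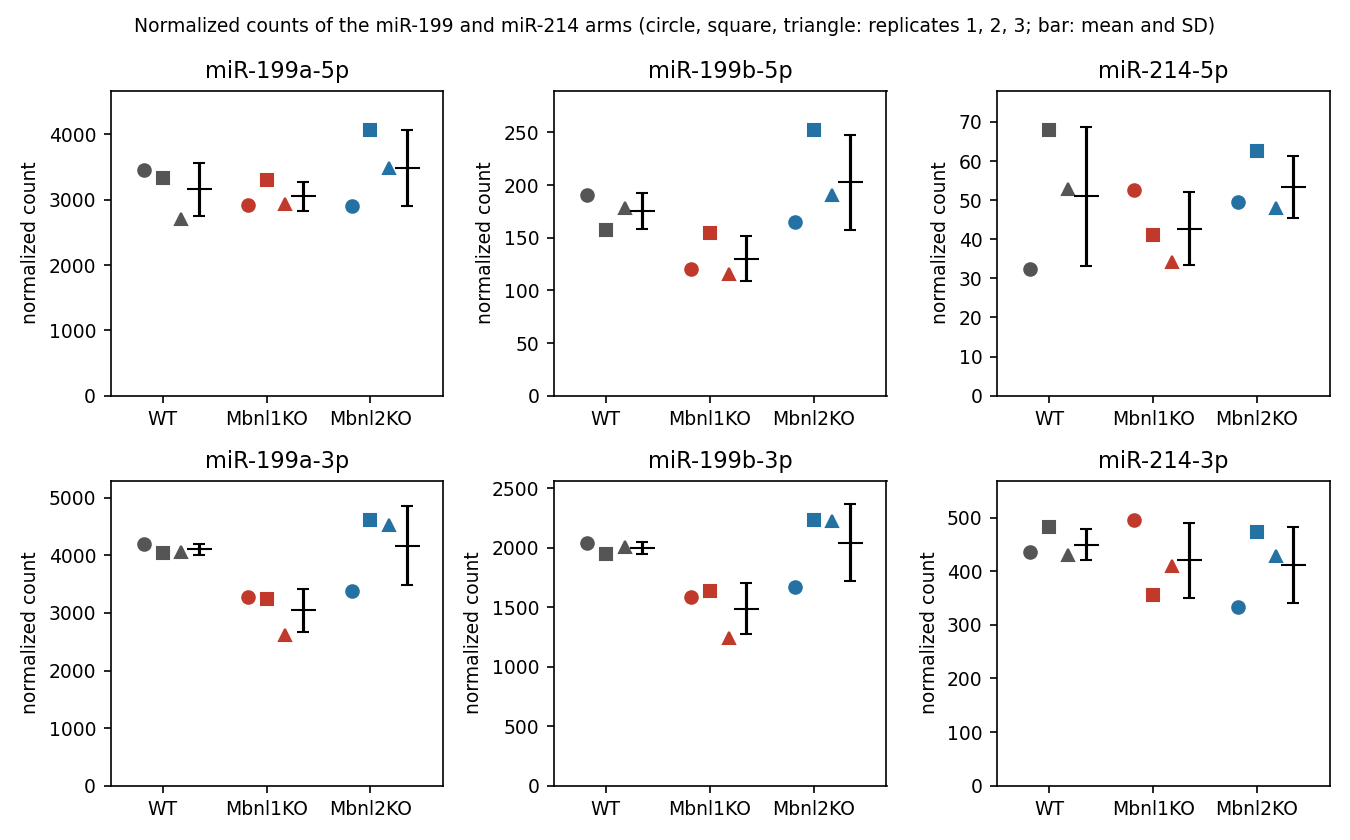
Normalized counts (vertical axes, linear from 0) of the 6 arms in WT, Mbnl1KO and Mbnl2KO, 1 symbol per library, with the mean and SD of 3 libraries beside each group. The Mbnl1KO libraries lie below all WT libraries for both 3p rows of miR-199 and, narrowly, for miR-199b-5p, and the groups overlap for the other arms.

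The second comparison asked the same of muscle without Mbnl2, against the same WT libraries. None of the 6 arms passed edgeR's test in Mbnl2KO, and none had groups that did not overlap. None had an unadjusted p under 0.05, and DESeq2 called none. Over all 293 tested miRNAs 5.8% were called and 23.2% had groups that did not overlap. The miR-199a-3p row had 3380, 4610 and 4521 normalized counts in Mbnl2KO, so that replicate 1 lay below and the other two above the WT range of 4045 to 4206. Its log2 fold change was 0.039 (SE 0.127, edgeR adjusted p = 0.911). miR-199a-5p had 2906, 4062 and 3479 normalized counts, with a log2 fold change of 0.16 (SE 0.133, edgeR adjusted p = 0.559). miR-199b-5p stood at 165, 252 and 191 normalized counts, and replicate 2 was the highest of the 9 libraries (log2 fold change 0.22, SE 0.176, edgeR adjusted p = 0.527). The miR-199b-3p row had 1674, 2232 and 2229 normalized counts and the log2 fold change 0.049 (SE 0.134, edgeR adjusted p = 0.902).

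The miR-214 arms overlapped with WT in Mbnl2KO. miR-214-3p had 334, 473 and 428 normalized counts, with replicate 1 the lowest of all libraries and replicate 3 also just below the WT range of 431 to 483 (log2 fold change -0.11, SE 0.148, edgeR adjusted p = 0.718). miR-214-5p had 49.6, 62.5 and 48.0 (log2 fold change 0.080, SE 0.278, edgeR adjusted p = 0.915). For 5 of the 6 arms, all but miR-214-5p, replicate 1 was the lowest of the 3 Mbnl2KO libraries, and for all 6 arms replicate 2 was the highest. The labels give these mice different allele pairs, where the study's text gives Mbnl2ΔE2/ΔE2 alone, so whether the alleles differed is not settled.

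The knockouts were also compared directly. The 3 rows of miR-199 other than miR-199a-5p were lower in Mbnl1KO than in Mbnl2KO, that is 3 of 6 rows of which 2 are the same sequence. Among all 309 miRNAs tested, 11.7% were called lower, 26.9% were called in either direction and 24.3% had all Mbnl1KO libraries below all Mbnl2KO libraries. For the miR-199a-3p row the log2 fold change was -0.45 (SE 0.144, edgeR adjusted p = 0.0274) and the highest Mbnl1KO library (3284) lay below the lowest Mbnl2KO library (3380). The miR-199b-3p row again followed it, at -0.46 (SE 0.154, edgeR adjusted p = 0.0345). miR-199b-5p had the largest difference of the 6 arms, -0.65 (SE 0.208, edgeR adjusted p = 0.0291), with 120, 155 and 115 normalized counts against 165, 252 and 191. miR-199a-5p differed by -0.19 (SE 0.137, edgeR adjusted p = 0.303), miR-214-3p by 0.030 (SE 0.178, edgeR adjusted p = 0.887) and miR-214-5p by -0.32 (SE 0.258, edgeR adjusted p = 0.355). None of the 3 calls held with library totals, where the median of all miRNAs was 0.35 against 0.066 with TMM and the log2 fold changes were -0.15, -0.16 and -0.37 (edgeR adjusted p = 0.645, 0.652 and 0.336). They also missed the threshold with totals that leave out miR-1a-3p (-0.38, -0.39 and -0.58, edgeR adjusted p = 0.0752, 0.0900 and 0.0581), and both 3p rows missed it with no filter beyond 1 count (-0.42 and -0.43, edgeR adjusted p = 0.0529 and 0.0614). Each call was lost without some single libraries. Both 3p rows lost it without Mbnl1KO replicate 3, Mbnl2KO replicate 2 or Mbnl2KO replicate 3, with the smallest change without Mbnl1KO replicate 3 (-0.35 and -0.34). miR-199b-5p lost it without Mbnl1KO replicate 1, Mbnl1KO replicate 3 or Mbnl2KO replicate 2 (-0.59, -0.56 and -0.47).

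**Figure D3:**
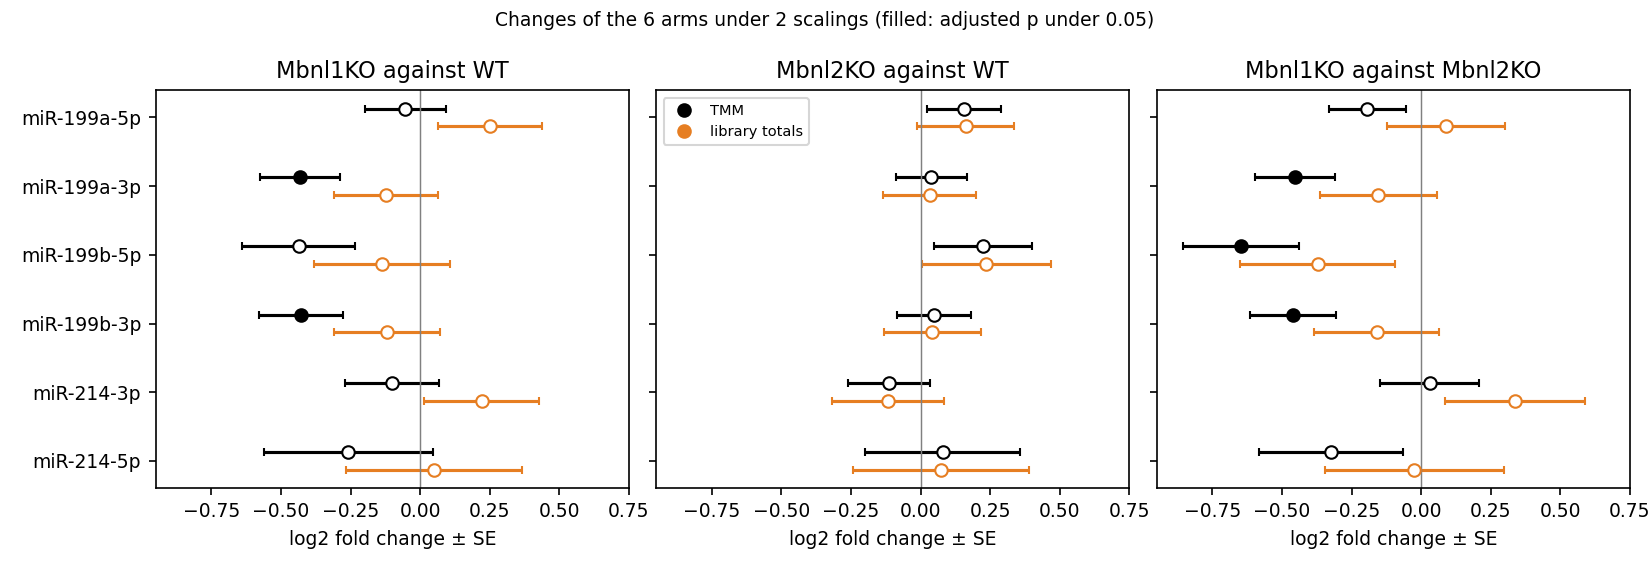
Log2 fold change with its SE (horizontal axes) of the 6 arms in the 3 comparisons, with TMM in black and library totals in orange, and filled points for an adjusted p under 0.05. Filled points appear only with TMM, for the 3p rows in both comparisons with Mbnl1KO and for miR-199b-5p against Mbnl2KO, and library totals shift all 6 arms upwards in those comparisons.

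Ratios between arms in the same library do not depend on scaling, so they were used to compare 5p with 3p arms and miR-199 with miR-214. Over the 5 ratios, none passed 0.05 after adjustment in the exact permutation test of the 9 libraries in 3 groups. The smallest adjusted p was 0.0833 and 3 ratios shared it. For a single pair of groups of 3, no exact two-sided permutation p can go below 0.1.

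miR-199-3p outnumbered miR-199a-5p when both 3p rows were added, with 5803, 6179 and 4939 counts in the WT libraries against 3203, 3437 and 2198. The miR-199a-3p row alone was closer to miR-199a-5p. The ratio of miR-199a-5p to the miR-199a-3p row was 0.820, 0.824 and 0.665 in WT, 0.890, 1.02 and 1.12 in Mbnl1KO and 0.860, 0.881 and 0.770 in Mbnl2KO. All Mbnl1KO libraries were above all others, by 0.39 on the log2 scale over WT. The overall exact permutation p was 0.0321 (adjusted 0.0833), and the exact p of Mbnl1KO against WT was 0.1, the smallest it could be. When all 76 miRNAs with both arms were fitted together, the difference had an SE of 0.187 and a limma adjusted p of 0.319, and it was the 27th largest of 76. In that comparison 3.95% of the arm pairs were called, and in 15.8% all Mbnl1KO libraries were above all WT libraries. Against Mbnl2KO the miR-199a ratio was higher in Mbnl1KO by 0.27 (limma adjusted p = 0.415), where 11.8% of the arm pairs were called and 23.7% had all Mbnl1KO libraries above all Mbnl2KO libraries. In Mbnl2KO against WT, the ratio differed by 0.13 (limma adjusted p = 0.816) and the groups overlapped, where 1.32% of the arm pairs were called. The miR-199a-3p row counts the same sequence as the miR-199b-3p row, so these ratios do not describe the miR-199a hairpins alone.

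For the miR-199b rows, the log2 ratio of 5p to 3p was -3.51 in WT, -3.52 in Mbnl1KO and -3.34 in Mbnl2KO, and the difference of Mbnl1KO from WT was -0.0039 (SE 0.183, limma adjusted p = 0.996). Because the miR-199b-3p row shares its reads with miR-199a-3p, this ratio does not describe the Mir199b hairpin alone. miR-214 was dominated by the 3p arm, and there were 0.110 reads of the 5p arm for each read of the 3p arm in WT, 0.102 in Mbnl1KO and 0.131 in Mbnl2KO. The WT libraries spread from 0.0752 to 0.141 and spanned all Mbnl1KO libraries (overall exact permutation p = 0.421).

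The arms of miR-199b-5p and miR-199a-5p come from different loci and do not share a row. miR-199b-5p amounted to 0.0554, 0.0473 and 0.0662 of miR-199a-5p in WT, 0.0412, 0.0469 and 0.0395 in Mbnl1KO and 0.0568, 0.0621 and 0.0550 in Mbnl2KO. The Mbnl1KO libraries were the 3 lowest, although replicate 2 was almost level with WT replicate 2. The log2 difference from WT was -0.39 and that from Mbnl2KO -0.45 (overall exact permutation p = 0.05, adjusted 0.0833).

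miR-199a-2 and miR-214 share the Dnm3os transcript, and in every library miR-199a-5p and the miR-199a-3p row were several times more abundant than miR-214-3p. For each read of miR-214-3p there were 7.90, 6.90 and 6.25 reads of miR-199a-5p in WT, 5.90, 9.29 and 7.12 in Mbnl1KO and 8.68, 8.59 and 8.12 in Mbnl2KO. All Mbnl2KO libraries were above all WT libraries, the Mbnl1KO libraries spread over both, and the overall exact permutation p was 0.318 (adjusted 0.397). For the miR-199a-3p row the same ratio was 9.63, 8.37 and 9.41 in WT, 6.63, 9.11 and 6.36 in Mbnl1KO and 10.1, 9.74 and 10.5 in Mbnl2KO. Here Mbnl1KO replicates 1 and 3 were below every other library and replicate 2 lay inside the WT range, while all Mbnl2KO libraries were above all WT libraries (overall exact permutation p = 0.0393, adjusted 0.0833). Without Mbnl1KO replicate 2 the adjusted exact permutation p was 0.0179, and over the other alternatives it ranged up to 0.238. The second miR-199a hairpin on chromosome 9 adds to both numerators, so these ratios do not give the yield of the Dnm3os transcript.

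**Figure D4:**
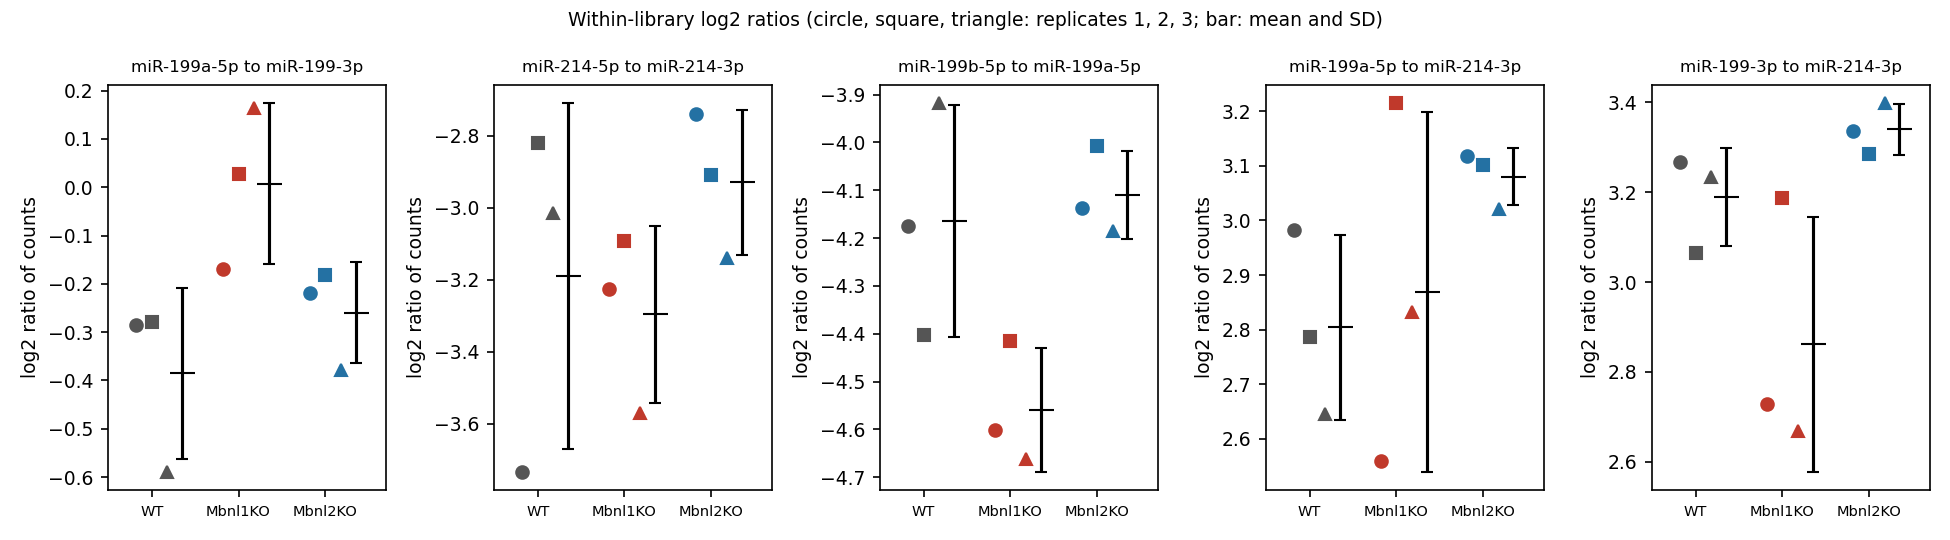
Log2 ratios of counts (vertical axes) between arms in the same library for the 5 ratios, 1 symbol per library, with the mean and SD of each group. Mbnl1KO lies above both other groups for miR-199a-5p to miR-199-3p and below both for miR-199b-5p to miR-199a-5p, and the groups overlap in the ratio of miR-214 arms.

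**Figure D5:**
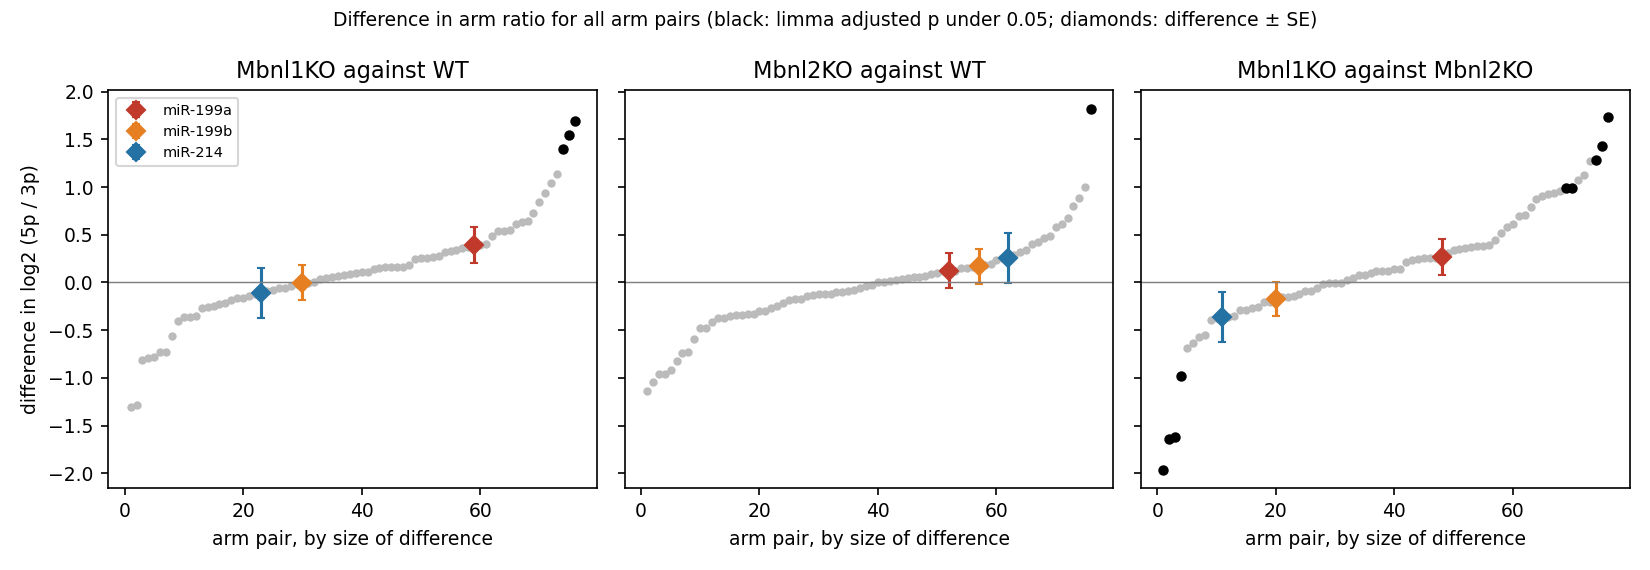
Difference between groups in the log2 ratio of the 5p to the 3p arm (vertical axes) for all 76 miRNAs with both arms, ordered by size in each of the 3 comparisons, with miR-199a, miR-199b and miR-214 as diamonds with SE and called pairs in black. The 3 pairs of the group lie among the grey points in each comparison, and miR-199a stands at 0.39 in Mbnl1KO against WT. The 3p rows of miR-199a and miR-199b count the same sequence.

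The SD over the 9 libraries of the log2 ratio between a pair of miRNAs was used as a measure of how alike their levels were, with libraries rather than cell types as the points. For miR-199a-5p, among 304 miRNAs outside the group, the closest were miR-125a-5p (0.11), miR-222-3p (0.13) and miR-339-3p (0.16), where the median was 0.40. For the miR-199a-3p row they were miR-194-5p (0.15), miR-676-3p (0.15) and miR-361-3p (0.16), with a median of 0.45. For miR-214-3p they were miR-29c-5p (0.15), miR-320-3p (0.15) and miR-99a-5p (0.16), with a median of 0.41. These are the 3 smallest values among 304 miRNAs, and the arms of the group were less alike than these, apart from the identical 3p rows. Ranked among the 304, miR-199b-5p stood 9th and miR-199a-5p 22nd for the miR-199a-3p row. For miR-214-3p, miR-199a-5p stood 25th and miR-199b-5p 138th. The SD was 0.22 between miR-199a-5p and miR-199a-3p, 0.22 between miR-199a-5p and miR-214-3p, 0.26 between miR-199a-3p and miR-214-3p and 0.17 between miR-199a-3p and miR-199b-5p. It was larger for other pairs, at 0.33 between both miR-214 arms, 0.37 between miR-199a-5p and miR-214-5p and 0.38 between miR-214-3p and miR-199b-5p, near the median of 0.41.

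Other miRNAs of connective tissue and vessel wall, the cells in which miR-199 and miR-214 are best known, were looked at as a list. Of 14 listed miRNAs, 13 were tested in each comparison, all but miR-21a-3p. Called were 3 of 13 in Mbnl1KO against WT, 3 of 13 in Mbnl2KO against WT and 2 of 13 between the knockouts, beside 33.1%, 5.8% and 26.9% of all miRNAs. In Mbnl1KO against WT, miR-100-5p fell by 0.71 (edgeR adjusted p = 3.09e-05) and miR-125b-5p fell by 0.42 (edgeR adjusted p = 0.0178) on the log2 scale, and miR-22-3p rose by 0.38 (edgeR adjusted p = 0.0481). The median log2 fold change of the list was 0.14, beside -0.0090 for all 317 miRNAs. In Mbnl2KO against WT, miR-10b-5p (0.54, edgeR adjusted p = 0.0103) and miR-143-3p (0.48, edgeR adjusted p = 0.0169) were higher and miR-100-5p was lower (-0.51, edgeR adjusted p = 0.0202), with a list median equal to that of all 293 miRNAs (0.019). In Mbnl1KO against Mbnl2KO, miR-10b-5p (-0.33, edgeR adjusted p = 0.0361) and miR-125b-5p (-0.43, edgeR adjusted p = 0.0133) were lower and none was higher. The summed level of the list, in normalized counts, ranged over 226030 to 236280 for WT, 209830 to 285920 for Mbnl1KO and 227970 to 237500 for Mbnl2KO. A large part of it was miR-22-3p alone. In the fit of Mbnl1KO against WT, miR-22-3p had a mean of 104360 (SD 26743) in Mbnl1KO and 80261 (SD 3948) in WT. The sum is therefore no even measure of the list.

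Markers of other cell types were counted in the same way. Of 9 listed miRNAs of immune and blood cells 7 were tested, and in Mbnl1KO against WT 4 were lower and 1 was higher, beside 14.2% called lower and 33.1% in either direction over all miRNAs, with a median log2 fold change of -0.49 beside -0.0090. In Mbnl2KO against WT, edgeR and DESeq2 each called 0 of the 7, and 2 had an unadjusted edgeR p under 0.05, where 5.8% of all miRNAs were called. Between the knockouts, where 3 rows of miR-199 were lower in Mbnl1KO, 4 of the 7 were lower and 1 was higher beside 26.9% of all miRNAs called, with a median of -0.46 beside 0.066. Their summed level, in normalized counts, ranged over 3761 to 4843 for WT, 3191 to 3853 for Mbnl1KO and 3829 to 4126 for Mbnl2KO. The defining miR-142a-3p was listed at 0 in every library, as were both endothelial miR-126a arms. Why these rows were at 0 was not tested, and they are not read as absence of the miRNAs or their cells. The partner arm miR-142a-5p was measured and was lower in Mbnl1KO than in WT (-0.84, edgeR adjusted p = 0.0295) and than in Mbnl2KO (-1.19, edgeR adjusted p = 0.00580). The myeloid miR-223-3p was lower in the same comparisons, by log2 fold changes of -0.87 (edgeR adjusted p = 3.74e-05) and -0.98 (edgeR adjusted p = 0.000957). miR-155-5p of the same list went the other way in both, by 0.86 (edgeR adjusted p = 1.02e-05) and 1.31 (edgeR adjusted p = 0.00178). Of 7 muscle fibre miRNAs 6 were tested, of which 2 were higher and 1 was lower in Mbnl1KO than in WT, beside 33.1% of all miRNAs called in either direction. In Mbnl1KO against Mbnl2KO 2 were higher and 1 was lower, beside 26.9% of all miRNAs, and 1 of 6 was higher in Mbnl2KO than in WT, beside 5.8%. Their summed level, of which miR-1a-3p is a member, lay at 3157200 to 4128100 normalized counts in Mbnl1KO, below all WT libraries (4552800 to 5182600), and at 4160500 to 5508400 in Mbnl2KO. DESeq2 called 2, 4 and 3 of the connective tissue, immune and muscle fibre miRNAs in Mbnl1KO against WT, where edgeR called 3, 5 and 3. Between the knockouts DESeq2 called 2, 6 and 4, where edgeR called 2, 5 and 3, and in Mbnl2KO against WT both tools called 3, 0 and 1. The part of these cell types in the levels of the miR-199 and miR-214 arms was not tested.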

How the data were processed

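The authors deposited 1 table of raw counts, reads assigned to each of 1966 mature miRNAs in 9 libraries, not normalized. Per their methods, reads were clipped and matched without mismatch to miRBase hairpins, and those over a mature arm were summed. How reads matching several hairpins were assigned, and whether this table was counted so, is not given in the sources used here. The submitters' processing notes name DESeq2. The 1057 rows at 0 in all libraries were left out.

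The deposited counts of each pair of groups (3 libraries each) were fitted by edgeR with the quasi-likelihood test (robust, TMM, mean normalized count above 10, Benjamini-Hochberg over all miRNAs tested, threshold 0.05). Log2 ratios used raw counts plus 0.5, with exact permutation tests over libraries and adjustment over 5 ratios. limma over 76 arm pairs was added after seeing the data. Normalized counts were scaled to the geometric mean of the effective library sizes. The scripts were tested on simulated data. Alternatives were DESeq2's size factors and Wald test, library totals with and without miR-1a-3p, other filters, a threshold of 0.01, 1 fit of all libraries, a replicate block, each library left out, a pseudocount of 1 and summed 3p rows.

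Named beside the 6 arms were the 3 miRNAs with the smallest SD of the log2 ratio to each main arm. Called miRNAs of the connective tissue list were also named, the 2 largest changes by rule. miR-22-3p, the third call in Mbnl2KO and 3 immune miRNAs were added after their values were seen. Members and lists were chosen with earlier results of these data known. Each library is 1 mouse. Reads carry no molecular identifiers in the table, so intervals cover counting error only. Software was Python 3.11.15 (NumPy 2.4.6, SciPy 1.17.1, pandas 2.3.3, matplotlib 3.10.9) and R 4.3.3 (DESeq2 1.42.0, limma 3.58.1, edgeR 4.0.16). The study's other mice and its human samples were not analysed here.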

Additional observations from a re-analysis of the deposited data

How the results depend on the processing

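With library totals, Mbnl1KO against WT gave 0.25 for miR-199a-5p, -0.12 for both miR-199-3p rows, -0.14 for miR-199b-5p, 0.22 for miR-214-3p and 0.050 for miR-214-5p (log2 fold changes), and Mbnl1KO against Mbnl2KO gave 0.089 for miR-199a-5p, -0.15 and -0.16 for the 3p rows and -0.37 for miR-199b-5p. The share of calls that were higher in Mbnl1KO went from 57.1% to 89.3% against WT and from 56.6% to 94.6% against Mbnl2KO, and in Mbnl2KO against WT from 58.8% to 71.4%. With totals without miR-1a-3p, Mbnl1KO against WT gave 0.019 for miR-199a-5p and -0.36 and -0.35 for the 3p rows, and Mbnl1KO against Mbnl2KO gave -0.38, -0.39 and, for miR-199b-5p, -0.58, none of which passed the threshold, with 70.5% of calls higher. With no filter beyond 1 count, the miR-199b-3p row in Mbnl1KO against WT (-0.43) and both 3p rows against Mbnl2KO (-0.42 and -0.43) missed the threshold, where more miRNAs were tested. DESeq2's Wald test turned miR-214-3p to -0.014 in Mbnl1KO against Mbnl2KO. The cause of these changes was not tested.

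The number of miRNAs called in Mbnl1KO against WT was 105, and 68 with means above 100. It was 17 in Mbnl2KO against WT, and 7 with library totals, 9 with means above 100, 11 with all libraries in 1 fit and 6 at 0.01. It was 83 between the knockouts, and 45 at 0.01. Leaving out each library gave 75 to 115, 6 to 25 and 55 to 93 calls, with 10, 6 and 8 in Mbnl2KO against WT without WT replicate 1, WT replicate 2 and Mbnl2KO replicate 1, and 55 between the knockouts without Mbnl1KO replicate 3.

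Leaving out each library in Mbnl1KO against WT gave log2 fold changes of -0.16 to 0.0077 for miR-199a-5p, -0.48 to -0.33 for miR-199a-3p, -0.47 to -0.31 for miR-199b-3p, -0.55 to -0.36 for miR-199b-5p, -0.22 to 0.033 for miR-214-3p and -0.51 to 0.0065 for miR-214-5p. In Mbnl2KO against WT the ranges were -0.046 to 0.11 for miR-199a-3p, -0.040 to 0.12 for miR-199b-3p, 0.065 to 0.21 for miR-199a-5p, 0.087 to 0.30 for miR-199b-5p, -0.18 to -0.040 for miR-214-3p and -0.20 to 0.35 for miR-214-5p. Between the knockouts they were -0.59 to -0.35 for miR-199a-3p, -0.59 to -0.34 for miR-199b-3p, -0.81 to -0.47 for miR-199b-5p, -0.31 to -0.084 for miR-199a-5p, -0.10 to 0.13 for miR-214-3p and -0.51 to -0.18 for miR-214-5p. For the log2 ratios, Mbnl1KO minus WT, they were -0.38 to 0.078 for miR-214-5p to miR-214-3p, -0.11 to 0.22 for miR-199a-5p to miR-214-3p and -0.49 to -0.23 for miR-199-3p to miR-214-3p.

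Replicate numbers did not pair the libraries. Deviations of same-numbered libraries correlated between -0.153 and 0.15 over the 3 comparisons, and 0 of 6, 4 of 6 and 0 of 6 libraries correlated best with their own number. With the replicate block, edgeR called 92, 21 and 80 miRNAs, and the miR-199a-3p row kept its call at -0.44 in Mbnl1KO against WT and at -0.45 against Mbnl2KO, and the block changed no call among the 6 arms. Raw counts of 30 to 71 limit what can be seen of miR-214-5p.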
